A study of Mus musculus with 14 samples.

Results

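Liver zonation genes were examined in whole livers of mice that carried a pancreatic tumor, with or without the mechanosensitive calcium channel TRPV4. The group consisted of 5 pericentral genes, Glul, Oat, Slc1a2, Axin2 and Lgr5, and 4 periportal genes, Hal, Sds, Gls2 and Pck1. They were chosen by name, as markers of the 2 ends of the liver lobule, out of 54532 genes in the count table. All 9 were found, and all 9 were among the 15118 genes that passed the filter on low counts.

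The mice, aged 8 to 12 weeks, received 100000 KPCY cells in the pancreatic tail, and their livers were taken 20 days later. KPCY is a cancer line from a mouse pancreatic tumor that carries a YFP label. WT mice (2 livers) carried a floxed but intact Piezo1 gene, so the controls are not plain wild-type animals. TRPV4-KO mice (3 livers) carried a global knockout of Trpv4, while the injected tumor cells kept the functional gene. GSK219 mice (3 livers) were WT mice given the TRPV4 antagonist GSK2193874 by gavage at 10 mg/kg every 24 hours. Whether WT mice received the vehicle, and when the mice last ate, is not given in the sources used here. The design asks whether the liver differs between tumor-bearing mice with TRPV4 and those in which it was deleted or blocked.

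Blood enters the lobule at the portal tract and leaves it through the central vein, and hepatocytes divide their work along this path. Pericentral hepatocytes receive Wnt ligands and R-spondins from the endothelium of the central vein, keep β-catenin active and capture the last ammonia as glutamine. Periportal hepatocytes, which meet oxygen, amino acids and pancreatic hormones first, break down amino acids, make urea and glucose, and respond strongly to glucagon. In a whole-liver library, fewer cells of a zone and less RNA per cell cannot be told apart.

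Promoter sequences are shown because the pericentral program is driven by β-catenin with TCF/LEF factors and Pck1 by cyclic AMP through CREB. RefSeq promoters (GRCm38.p6, 250 bases before to 50 after the start) were matched for 6 of the 9 genes, Glul, Oat, Slc1a2, Axin2, Hal and Pck1, and not for Lgr5, Sds and Gls2. The letters ATCAAAG (TCF/LEF), on either strand, occurred in 2 of the 6, Slc1a2 and Hal, and in 3.73% of 32851 mouse promoters. The letters ACGTCA (CREB), on either strand, occurred in 1 of the 6, Pck1, and in 7.51% of all promoters. The 250 bases before the start are given 5′ to 3′ on the plus strand, with a match in capitals. They lie outside the annotated transcripts of Glul, Axin2 and Hal. The Slc1a2 window lies inside the gene and holds 29 bases of one of its exons, and the last 25 bases of the Pck1 window lie in its first exon.
Glul, chr1:153899679-153899928: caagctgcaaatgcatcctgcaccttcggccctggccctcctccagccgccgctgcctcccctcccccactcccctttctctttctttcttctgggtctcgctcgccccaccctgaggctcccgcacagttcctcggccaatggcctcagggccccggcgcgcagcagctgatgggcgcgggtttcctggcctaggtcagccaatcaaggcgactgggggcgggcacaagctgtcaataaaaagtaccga
Axin2, chr11:108920099-108920348: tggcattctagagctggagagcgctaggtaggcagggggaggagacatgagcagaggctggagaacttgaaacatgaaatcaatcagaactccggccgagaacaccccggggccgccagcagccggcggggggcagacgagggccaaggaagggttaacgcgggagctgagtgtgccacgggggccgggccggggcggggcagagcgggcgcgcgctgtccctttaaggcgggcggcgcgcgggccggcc
Slc1a2, chr2:102706188-102706437: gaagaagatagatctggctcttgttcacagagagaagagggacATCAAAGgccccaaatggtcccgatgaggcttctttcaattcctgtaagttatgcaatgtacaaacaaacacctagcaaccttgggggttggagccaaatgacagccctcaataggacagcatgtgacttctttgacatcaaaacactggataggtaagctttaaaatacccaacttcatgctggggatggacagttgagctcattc
Hal, chr10:93488518-93488767: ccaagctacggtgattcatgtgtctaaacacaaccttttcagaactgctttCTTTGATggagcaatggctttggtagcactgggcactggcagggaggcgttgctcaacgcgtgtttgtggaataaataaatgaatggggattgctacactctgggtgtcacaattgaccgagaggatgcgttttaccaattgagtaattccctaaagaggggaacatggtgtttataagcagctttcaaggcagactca
Pck1, chr2:173152823-173153072: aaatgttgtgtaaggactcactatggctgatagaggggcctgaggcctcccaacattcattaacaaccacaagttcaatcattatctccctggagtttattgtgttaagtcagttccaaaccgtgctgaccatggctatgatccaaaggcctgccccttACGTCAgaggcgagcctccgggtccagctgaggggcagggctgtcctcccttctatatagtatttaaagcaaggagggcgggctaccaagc
The TCF/LEF letters began at position -207 from the start of Slc1a2 and at -199 from that of Hal, so one match was at a pericentral gene and one at a periportal gene. The CREB letters began at position -91 from the start of Pck1. Such a match is a description of letters and not of binding, and no match in Glul and Axin2 says only that these letters are not in these windows.

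The libraries held between 15567031 and 17395299 counts on genes. Trpv4 had 43 and 53 counts in WT, 15, 5 and 23 in TRPV4-KO and 20, 30 and 36 with GSK219. Reads of Trpv4 thus remained in TRPV4-KO livers, and replicate 3 of TRPV4-KO (23) had more than replicate 1 of GSK219 (20). Counts per gene do not tell which part of the gene they come from. Xist reads marked replicate 1 of WT and replicate 3 of both TRPV4-KO and GSK219, and the other 5 livers had Y-linked reads, so each group mixes sexes. Hepatocyte markers, 7 of them, summed to between 58977 and 72888 CPM (counts scaled to the size of the library) in WT, 78397 to 99006 in TRPV4-KO and 79572 to 89623 with GSK219. Markers of 12 neutrophil genes summed to 64.8 to 80.9 CPM in WT against 1.77 to 8.05 in TRPV4-KO and 2.64 to 7.11 with GSK219, and 10 macrophage markers to 1423 to 1590, 379 to 860 and 406 to 973 CPM. Endothelial markers (7) summed to 440 to 493, 280 to 432 and 324 to 450 CPM, and stellate and fibroblast markers (8) to 383 to 476, 146 to 325 and 215 to 360 CPM. Acute-phase genes (9), made by hepatocytes during inflammation, summed to 24102 to 34668, 10418 to 13684 and 11043 to 11718 CPM. Ductal and tumor markers (8) summed to 41.1 to 84.7, 46.7 to 54.0 and 28.3 to 50.8 CPM. Neutrophil, macrophage and stellate marker sums and acute-phase sums of both WT livers thus lay above those of all other livers, and the part of this in the differences given here was not tested.

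Levels between genes were compared per length, as TPM, which are counts scaled by gene length and library size. In WT livers Pck1, the rate-limiting enzyme of gluconeogenesis, had the highest mean of the 9 with 2197 TPM, followed by Oat with 1272, Glul with 969, Sds with 285, Gls2 with 259 and Hal with 225 TPM. Slc1a2 had 45.1 TPM, Axin2 7.13 and Lgr5 3.13. The metabolic enzymes were thus the abundant members, and the 2 regulators of Wnt signaling were present at a low level. Neighbours in this order from Sds to Hal differed by less than the larger of their SDs (n = 2), and the other neighbours by more.

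Comparing WT with TRPV4-KO livers, none of the 9 genes passed the threshold of edgeR's quasi-likelihood test (adjusted p under 0.05 over all genes and a log2 fold change over 1), which 0.265% of all genes passed, and none was called with DESeq2 either. The fitted differences lay on opposite sides: all 5 pericentral genes were higher in WT, with a median log2 fold change of 0.44, and all 4 periportal genes were lower, with a median of -0.40. Over all genes the median was -0.01 and 48.8% were higher in WT. An unadjusted p under 0.05 was reached by 3 of the 9, Glul, Axin2 and Gls2, and by 17.1% of all genes. It was reached by 1 of the 9 and 7.11% of all genes without WT replicate 1, and by 5 of the 9 and 22.7% of all genes with the replicate block. Without TRPV4-KO replicate 1, 2 or 3 it was reached by 3, 2 and 4 of the 9, and by 11.2%, 10.7% and 28.9% of all genes. The groups did not overlap for Glul, Axin2 and Lgr5, with WT higher, against 17.7% of all genes, and for Gls2 and Pck1, with WT lower, against 15.5% of all genes.

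**Figure D1:**
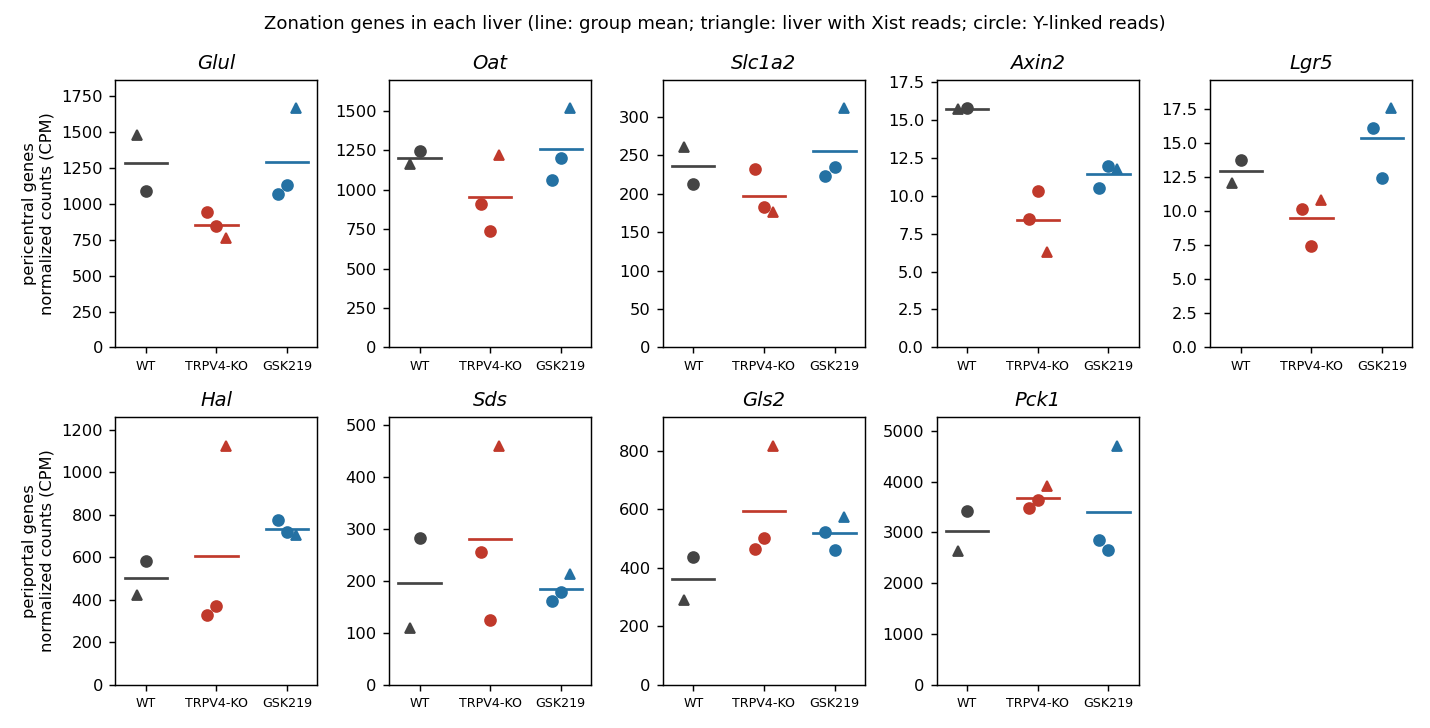
Normalized counts (CPM, axes from 0) of the 9 zonation genes in each of 2 WT, 3 TRPV4-KO and 3 GSK219 livers. Lines are group means, triangles are livers with Xist reads and circles livers with Y-linked reads. Both WT livers lie above all TRPV4-KO livers for Glul, Axin2 and Lgr5, and TRPV4-KO replicate 3, a triangle, has the highest Hal, Sds and Gls2 of the 8 livers.

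Glul (ENSMUSG00000026473, chromosome 1 from 153899944 to 153909723 of GRCm38), glutamine synthetase, is the classical marker of the hepatocytes next to the central vein. It had 1480 and 1088 CPM in the WT livers, 946, 847 and 761 in TRPV4-KO and 1071, 1129 and 1664 with GSK219. Each TRPV4-KO liver was below both WT livers and below all GSK219 livers, while WT and GSK219 overlapped. The log2 fold change of WT over TRPV4-KO was 0.59 (SE 0.22, 95% interval 0.08 to 1.11, adjusted p = 0.234 by edgeR), a 1.51-fold higher level that did not pass the threshold. Between WT and GSK219 it was -0.00 (95% interval -0.52 to 0.51, adjusted p = 1 by edgeR).

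Slc1a2 (GLT-1), the glutamate transporter of pericentral hepatocytes that supplies Glul with substrate, followed Glul most closely of the 9 genes. Its level ranged from 213 to 260 CPM in WT, 176 to 232 in TRPV4-KO and 223 to 311 with GSK219, and the groups overlapped. Its log2 fold change was 0.26 for WT over TRPV4-KO (SE 0.19, adjusted p = 0.526 by edgeR) and -0.12 for WT over GSK219 (SE 0.19, adjusted p = 0.943 by edgeR). Oat, ornithine aminotransferase, which passes ornithine on toward glutamate, ranged from 1162 to 1246 CPM in WT, 739 to 1218 in TRPV4-KO and 1060 to 1516 with GSK219. Here too the groups overlapped, because TRPV4-KO replicate 3 lay within the WT range. The log2 fold change of Oat was 0.33 for WT over TRPV4-KO (SE 0.23, adjusted p = 0.502 by edgeR).

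Axin2 (ENSMUSG00000000142, chromosome 11 from 108920349 to 108950783), a β-catenin target that feeds back to restrain the pathway, showed the largest difference of the 5 pericentral genes between WT and TRPV4-KO. It had 254 and 270 counts (15.7 CPM in both) in WT livers, 134, 159 and 109 counts (8.47, 10.3 and 6.31 CPM) in TRPV4-KO and 167, 198 and 196 counts (10.5, 12.0 and 11.7 CPM) with GSK219. The 3 groups did not overlap at all, with GSK219 between the others. WT was 1.88-fold above TRPV4-KO, a log2 fold change of 0.91 (SE 0.21, 95% interval 0.44 to 1.38, adjusted p = 0.115 by edgeR). The adjusted p over the alternatives ranged from 0.0102 with DESeq2 to 0.549 without WT replicate 1. It was under 0.05 also with a sex term (0.0436) and without TRPV4-KO replicate 3 (0.037), with a log2 fold change below 1 in each of these 3, so Axin2 was not called by the full threshold in any of them. An adjusted p under 0.05 at any fold change was reached by more of all genes there. The shares were 5.51% with DESeq2, 3.54% with the sex term and 8.64% without TRPV4-KO replicate 3, against 0.291% in the main fit. Against GSK219 the log2 fold change of WT was 0.46 (SE 0.21, adjusted p = 0.613 by edgeR).

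Lgr5 (ENSMUSG00000020140, chromosome 10 from 115450311 to 115587780) is the receptor for R-spondins and itself a Wnt target. It had 12.1 and 13.8 CPM in WT, 10.2, 7.45 and 10.8 in TRPV4-KO and 16.1, 12.4 and 17.5 with GSK219. These rest on 115 to 293 counts per liver. The TRPV4-KO livers were the 3 lowest of the 8, and WT and GSK219 overlapped. The log2 fold change of WT over TRPV4-KO was 0.44 (SE 0.21, adjusted p = 0.338 by edgeR), and that of WT over GSK219 was -0.25 (SE 0.21, adjusted p = 0.851 by edgeR).

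Hal, histidine ammonia-lyase, which opens histidine breakdown, varied more within TRPV4-KO than between groups. It had 421 and 584 CPM in WT, 326, 371 and 1125 in TRPV4-KO and 775, 718 and 704 with GSK219. The first 2 TRPV4-KO livers lay below both WT livers and the third above all other livers. The log2 fold change of WT over TRPV4-KO was -0.27 (SE 0.50, adjusted p = 0.833 by edgeR), and without TRPV4-KO replicate 3 it turned to 0.53. All GSK219 livers were above both WT livers, with a log2 fold change of -0.54 for WT over GSK219 (SE 0.51, adjusted p = 0.872 by edgeR).

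Sds (ENSMUSG00000029597, chromosome 5 from 120476526 to 120483932), serine dehydratase, which turns serine into pyruvate for glucose, was the most variable gene of the 9 in WT. It had 109 and 282 CPM in WT, 256, 125 and 460 in TRPV4-KO and 161, 179 and 213 with GSK219, and the groups overlapped. Its log2 fold change for WT over TRPV4-KO, -0.52 (SE 0.57, adjusted p = 0.699 by edgeR), lay between -1.34 without WT replicate 2 and 0.04 without TRPV4-KO replicate 3.

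Gls2 (ENSMUSG00000044005, chromosome 10 from 128194457 to 128210004), the liver glutaminase that frees ammonia from glutamine, carries out the reverse of the reaction of Glul. It had 288 and 438 CPM in WT, 466, 503 and 816 in TRPV4-KO and 523, 459 and 573 with GSK219. Both WT livers were below all 6 other livers. The log2 fold change was -0.71 for WT over TRPV4-KO (SE 0.28, 95% interval -1.35 to -0.08, adjusted p = 0.246 by edgeR) and -0.51 for WT over GSK219 (SE 0.28, adjusted p = 0.693 by edgeR). Gls2 stayed lower in WT with each liver left out, from -1.03 to -0.41 against TRPV4-KO.

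Pck1 had 2632 and 3428 CPM in WT, 3476, 3643 and 3922 in TRPV4-KO and 2850, 2648 and 4705 with GSK219. The TRPV4-KO livers lay just above the higher WT liver, and the GSK219 livers overlapped both groups. The log2 fold change was -0.28 for WT over TRPV4-KO (SE 0.26, adjusted p = 0.628 by edgeR) and -0.17 for WT over GSK219 (SE 0.26, adjusted p = 0.935 by edgeR).

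**Figure D2:**
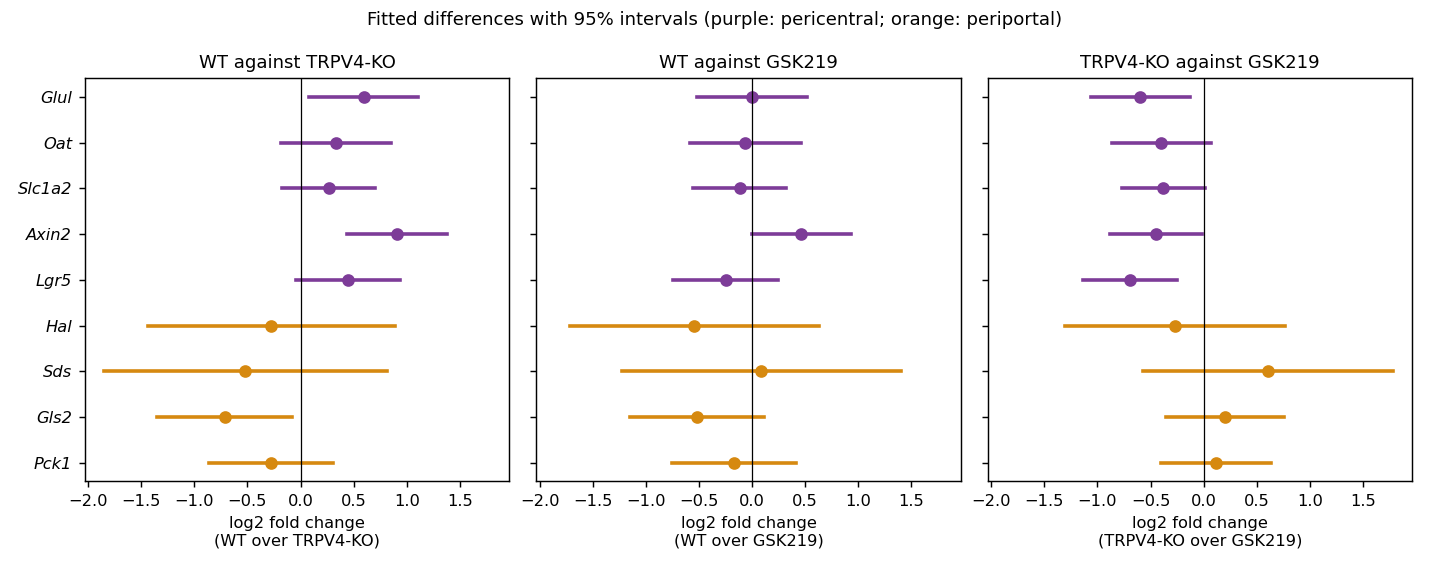
Fitted log2 fold changes (points) with 95% intervals (lines) of the 9 genes in the 3 comparisons, pericentral genes in purple and periportal genes in orange. The intervals of Glul, Axin2 and Gls2 leave out 0 for WT over TRPV4-KO, no interval does so for WT over GSK219, and those of Glul, Axin2 and Lgr5 do so for TRPV4-KO over GSK219. No gene passed after adjustment.

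In GSK219 livers 4 of the 5 pericentral genes had a fitted level at or above that of WT, and Axin2 a lower one. None of the 9 genes was called against WT by edgeR, as was 0% of all genes, nor by DESeq2, and none had an unadjusted p under 0.05, against 8.22% of all genes. With only the groups compared 3 of the 9 had one (9.99% of all genes), and 1 with the sex term (11.5%) or without WT replicate 2 (7.94%). None had one without WT replicate 1 (3.06%), without GSK219 replicate 1 (4.83%) or with the replicate block (13%). Of the pericentral genes 1 of 5 was higher in WT (median log2 fold change -0.06), and of the periportal genes 1 of 4 (median -0.34), against 49.7% of all genes. WT and GSK219 did not overlap for Axin2, with WT higher, against 15.6% of all genes, and for Hal and Gls2, with WT lower, against 11.7%.

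The direct comparison of TRPV4-KO with GSK219 livers, which uses no WT liver in its contrast, gave all 5 pericentral genes lower in TRPV4-KO, with a median log2 fold change of -0.45 against 0.01 over all genes, of which 52.6% were higher in TRPV4-KO. None was called by edgeR, against 0.0992% of all genes, nor by DESeq2, and 3, all pericentral and lower, had an unadjusted p under 0.05, against 6.12% of all genes in either direction and 2.64% in that direction. Over the alternatives 2 to 5 of the 9 had one, with 3 (3.55% of all genes in either direction) without TRPV4-KO replicate 1, 3 (4%) without replicate 2, 4 (16.2%) without replicate 3, 4 (9.53%) with the sex term and 5 (4.13%) without the filter. The smallest p was that of Lgr5, at a log2 fold change of -0.69 (SE 0.19, adjusted p = 0.506 by edgeR). For Glul the log2 fold change was -0.60 (SE 0.20, adjusted p = 0.68 by edgeR) and for Axin2 -0.45 (SE 0.19, adjusted p = 0.798 by edgeR). Those 3 genes did not overlap, with TRPV4-KO lower, against 4.35% of all genes. Slc1a2 and Oat had log2 fold changes of -0.38 and -0.40. The periportal genes lay between -0.27 (Hal) and 0.60 (Sds, 0.045 without TRPV4-KO replicate 3), with no p under 0.05. Without TRPV4-KO replicate 3, Hal was called, with a log2 fold change of -1.07 by edgeR (adjusted p = 0.0334). In that fit 79 genes were called, against 15 with all livers. Of all genes, 0.944% had an adjusted p under 0.05 at any fold change there, against 0.106% with all livers. The TRPV4-KO values of this comparison are those compared with WT above, so it is not a separate measurement of the knockout.

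Averaged per liver as log2 relative to the WT mean, the 5 pericentral genes stood at 0.04 and -0.05 in WT, -0.42, -0.61 and -0.55 in TRPV4-KO and -0.16, -0.13 and 0.22 with GSK219. The 3 TRPV4-KO livers were the 3 lowest. The 4 periportal genes stood at -0.41 and 0.30 in WT, 0.08, -0.09 and 0.98 in TRPV4-KO and 0.20, 0.13 and 0.48 with GSK219. Of the other 6 livers, 4 lay between the 2 WT livers, and the 2 above them were TRPV4-KO replicate 3 and GSK219 replicate 3, both with Xist reads.

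**Figure D3:**
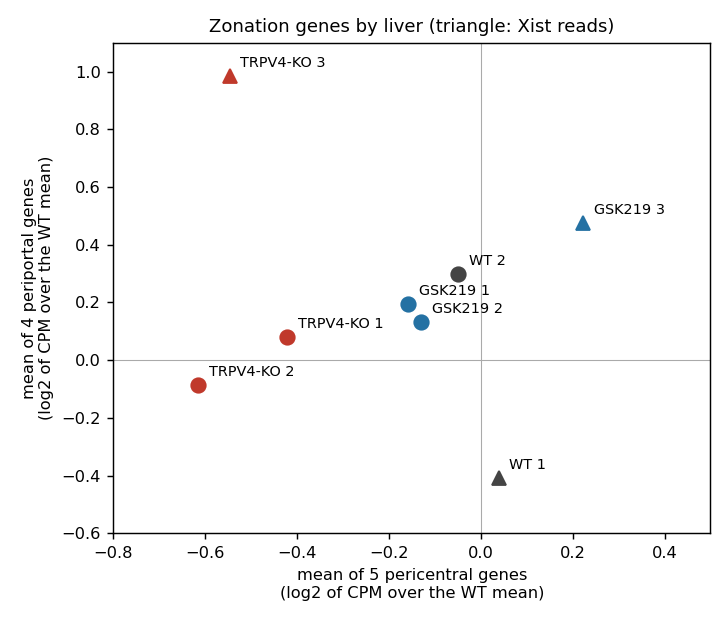
Mean of the 4 periportal genes (vertical) against the mean of the 5 pericentral genes (horizontal) in each liver, both as log2 of CPM over the WT mean. TRPV4-KO livers lie at -0.42, -0.61 and -0.55 on the horizontal axis, left of the other 5 livers, and TRPV4-KO replicate 3 stands at 0.98 on the vertical axis.

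The comparison was also read within livers of the same sex reads. Among livers with Y-linked reads (1 WT, 2 TRPV4-KO), 5 of 5 pericentral genes and 2 of 4 periportal genes were higher in WT. Among livers with Xist reads (1 of each group), 4 of 5 pericentral genes and 0 of 4 periportal genes were higher in WT. Hal, Sds and Oat differed in direction between the 2 kinds of livers, Hal with log2 differences of 0.74 and -1.42, Sds with 0.57 and -2.08 and Oat with 0.60 and -0.07 for Y-linked and Xist reads, while the other 6 genes kept theirs. The difference between the sexes was not tested.

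Across the 8 livers, log2 CPM of the pericentral genes correlated positively in all 10 pairs (Pearson's r 0.24 to 0.94, median 0.64), as did that of the periportal genes in all 6 pairs (0.15 to 0.72, median 0.59). Between the zones 9 of 20 pairs were positive (-0.81 to 0.63, median -0.06), the lowest being Axin2 with Gls2. The livers share libraries and group differences, so these values are descriptions. Of 13214 genes with a mean of at least 1 CPM, Nagpa (r = 0.96), Slc1a2 (r = 0.94) and Igha (r = 0.93) were most like Glul, and Ttc39b (r = 0.95), Drg2 (r = 0.94) and Slc25a44 (r = 0.93) most like Pck1.

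Other genes of the 2 zones were read from lists written from general knowledge. Of 12 other pericentral genes, 8 were higher in WT than in TRPV4-KO, 4 with an unadjusted p under 0.05 (9.5% of all genes in that direction) and none called (median log2 fold change 0.38). The 4 were Avpr1a, the vasopressin receptor (43.6 ± 2.81 CPM in WT, SD, n = 2, and 22.7 ± 8.86 in TRPV4-KO, SD, n = 3), the tight junction gene Cldn2 (110 ± 28.9 and 74.9 ± 14.2), the ammonium transporter Rhbg (3.64 ± 1.68 and 1.97 ± 0.70) and Slc13a3, a dicarboxylate transporter (136 ± 118 and 43.7 ± 13.7). Only Avpr1a did not overlap among these 4. Of all 12 genes of the list, 2 did not overlap, with WT higher, against 17.7% of all genes. The 4 of the 12 that were not higher in WT, named after their values were seen, were the cytochrome P450 genes Cyp2e1 and Cyp1a2, with log2 fold changes of -0.32 and -0.13, and Rgn and Cyp27a1, with -0.13 each, and the groups overlapped for all 4. In GSK219 livers Avpr1a was at 48.3 ± 15.1 CPM and Cldn2 at 117 ± 8.41 (SD, n = 3), and 6 of the 12 were higher in WT.

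Of 8 Wnt target and feedback genes that passed the filter, 5 were higher in WT than in TRPV4-KO, 2 of them with an unadjusted p under 0.05 (9.5% of all genes in that direction). Nkd1, a feedback inhibitor, had 11.0 ± 0.39 CPM in WT (SD, n = 2), 6.81 ± 1.59 in TRPV4-KO and 10.8 ± 1.02 with GSK219 (SD, n = 3), and its log2 fold change for WT over TRPV4-KO was 0.69 (SE 0.22, adjusted p = 0.185 by edgeR). Sp5, a transcription factor induced by Wnt, had 4.43 ± 0.66, 2.22 ± 0.50 and 3.55 ± 1.62 CPM. Tnfrsf19, a receptor of the TNF family, was lower in WT, at 4.05 ± 1.19, 6.75 ± 1.34 and 6.62 ± 2.90 CPM. Upstream of them, 8 of 15 ligand, receptor and core genes were higher in WT, near the 48.8% of all genes, and 2 had an unadjusted p under 0.05, against 9.5% of all genes in that direction. They were the co-receptor Lrp5 (138 ± 7.31 CPM in WT, 77.7 ± 20.6 in TRPV4-KO and 129 ± 34.2 with GSK219) and Wnt9b, a ligand made by endothelium of the central vein (3.90 ± 0.09, 1.60 ± 0.35 and 2.22 ± 1.41 CPM). The second co-receptor, Lrp6, had a log2 fold change of -0.06. None of these genes was called, and Wnt9b stands beside endothelial markers of which 7 of 7 tested were higher in WT than in TRPV4-KO, and their part in its values was not tested.

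Of 12 other periportal genes, 9 were lower in WT than in TRPV4-KO, 4 of them with an unadjusted p under 0.05 (7.61% of all genes in that direction), and the median log2 fold change was -0.34. Of the 12, 1 was called, against 0.265% of all genes in either direction. It was Hsd17b13, an enzyme of lipid droplets, with 123 and 155 CPM in WT, 359, 361 and 344 in TRPV4-KO and 232, 211 and 191 with GSK219. The 3 groups did not overlap, with GSK219 in between. Hsd17b13 was thus lower in WT by edgeR, at a log2 fold change of -1.35 (SE 0.15, adjusted p = 0.0106). The call was lost without WT replicate 1 (adjusted p = 0.223), WT replicate 2 (0.0631), TRPV4-KO replicate 1 (0.0613) or TRPV4-KO replicate 2 (0.0625) and when only the WT and TRPV4-KO livers were fitted (0.0758), with the log2 fold change between -1.52 and -1.18 in all alternatives. Against GSK219, WT was lower by 0.60 on the log2 scale (SE 0.14, adjusted p = 0.417 by edgeR), and 11 of the 12 genes were lower in WT. The adjusted p of Hsd17b13 was 0.0283 with DESeq2, where 0.763% of all genes had one under 0.05. Its log2 fold change for WT over GSK219 lay between -0.79 and -0.45 in all alternatives, so it did not pass the fold-change threshold. Pigr, the receptor that carries IgA into bile, had 1303 ± 150 CPM in WT (SD, n = 2), 2072 ± 351 in TRPV4-KO and 1864 ± 94.8 with GSK219 (SD, n = 3).

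Of 7 urea cycle genes tested, 6 were lower in WT than in TRPV4-KO, 3 with an unadjusted p under 0.05 (7.61% of all genes in that direction) and none called. Otc, which joins ornithine and carbamoyl phosphate, had 244 ± 28.5 CPM in WT, 374 ± 36.8 in TRPV4-KO and 317 ± 7.73 with GSK219 (log2 fold change of WT over TRPV4-KO -0.62, adjusted p = 0.108 by edgeR). Slc25a13, the aspartate carrier of the mitochondrion, had 173 ± 2.02, 281 ± 46.8 and 224 ± 12.6 CPM (log2 fold change -0.70, adjusted p = 0.115 by edgeR). Of 12 genes of amino acid breakdown, 11 were lower in WT than in TRPV4-KO and 12 lower than in GSK219, with medians of -0.37 and -0.32, and 4 and 1 of them reached an unadjusted p under 0.05 (7.61% and 2.34% of all genes in that direction). Uroc1 and Ftcd, which act after Hal on histidine, had log2 fold changes of -0.68 and -0.62 against TRPV4-KO. Shmt1, which interconverts serine and glycine, had -0.88. The periportal list shares Ass1, Asl and Cps1 with the urea cycle list and Uroc1 with the breakdown list, so these counts are not separate. They also stand beside the hepatocyte marker sums given above, to which Alb contributed most, with 38006 ± 9008 CPM in WT (SD, n = 2) and 66647 ± 10931 in TRPV4-KO (SD, n = 3). Of those 7 markers, 5 were lower and 2 higher in WT than in TRPV4-KO, with a median log2 fold change of -0.12. Alb had -0.81 (adjusted p = 0.151 by edgeR) and Fgb, a fibrinogen chain that is also an acute-phase gene, 0.84 (adjusted p = 0.144 by edgeR).

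Genes under hormonal control like Pck1 were read in 2 lists. Of 14 gluconeogenesis and fasting genes, 11 were lower in WT than in TRPV4-KO, none with an unadjusted p under 0.05 (7.61% of all genes in that direction), with a median of -0.28. The 3 higher in WT, named after their values were seen, were Igfbp1, Pdk4 and Fgf21. Igfbp1 had 84.3 ± 15.7 CPM in WT (SD, n = 2) and 38.1 ± 24.8 in TRPV4-KO (SD, n = 3). Pdk4 had 7.12 ± 1.06 and 3.92 ± 1.26 CPM, and Fgf21 0.52 ± 0.40 and 0.30 ± 0.29. Of the 14 genes, 2 did not overlap with WT higher, Igfbp1 and Pdk4 (17.7% of all genes), and 2 with WT lower (15.5%). Fbp1, the next committed enzyme of gluconeogenesis, had 852 ± 36.1 CPM in WT and 1073 ± 72.5 in TRPV4-KO. Of 10 insulin and feeding genes, which are regulated in the opposite way, 9 were lower in WT too (median -0.74), 2 with an unadjusted p under 0.05 (7.61% of all genes in that direction). Of all genes, 48.8% were higher in WT. Pklr, pyruvate kinase of the liver, had 83.7 ± 5.90, 205 ± 17.2 and 134 ± 56.0 CPM in WT, TRPV4-KO and GSK219 livers, and its log2 fold change for WT over TRPV4-KO was -1.30 (SE 0.30, adjusted p = 0.115 by edgeR). Ppp1r3b, which directs glycogen synthesis, had 88.8 ± 18.7, 261 ± 101 and 161 ± 112 CPM.

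Around glutamine, 15 genes outside the zonation lists were read. Against TRPV4-KO, 2 of them were higher and 6 lower in WT with an unadjusted p under 0.05, against 9.5% and 7.61% of all genes, and none was called. The 6 lower ones, named after their values were seen, were Gpt, Slc38a2, Odc1, Prodh, Aldh4a1 and Got2, with log2 fold changes for WT over TRPV4-KO from -0.60 to -0.29. The 2 higher ones were Slc1a5 and Aldh18a1. The glutamine transporter Slc1a5 had 9.66 ± 0.07, 5.26 ± 0.44 and 4.76 ± 1.26 CPM. Aldh18a1, which turns glutamate toward proline and ornithine, had 5.32 ± 0.27, 1.82 ± 0.79 and 2.77 ± 0.93 CPM. The log2 fold changes of Slc1a5 and Aldh18a1 were 0.88 and 1.53. Both were higher in WT along with the macrophage markers, of which 10 of 10 were higher in WT than in either other group, and whose part in these values was not tested.

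**Figure D4:**
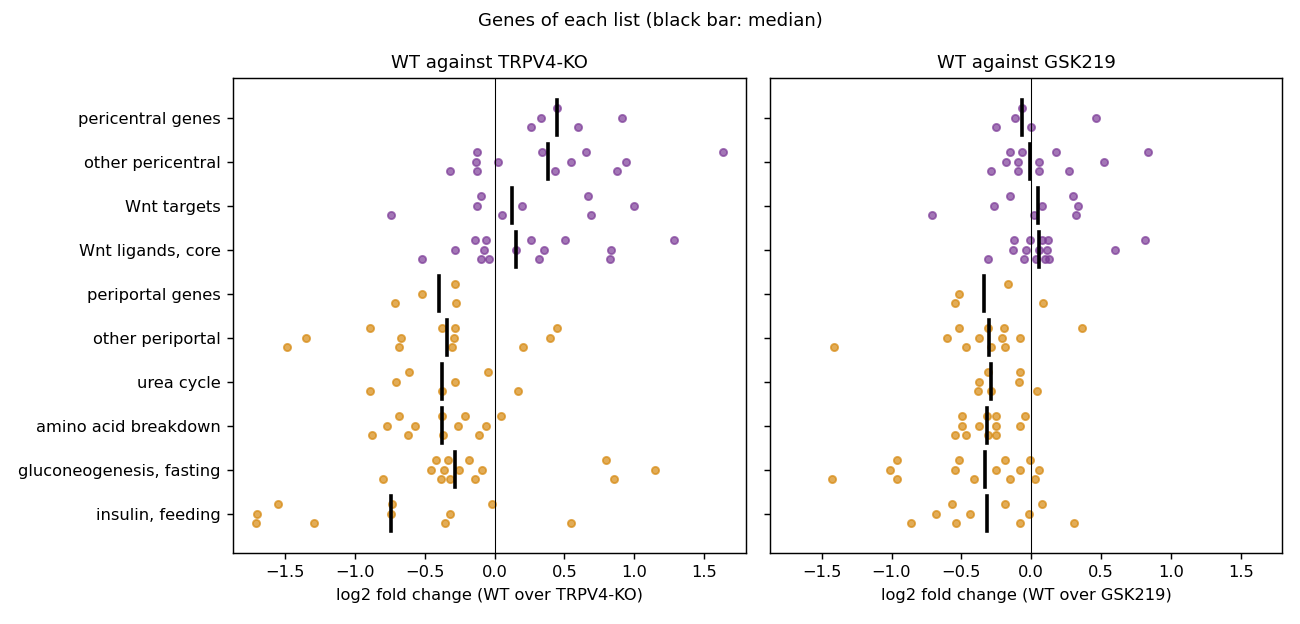
Log2 fold changes of single genes (points) in 10 lists for WT over TRPV4-KO (left) and WT over GSK219 (right), with the median of each list as a black bar. The 5 pericentral genes have medians of 0.44 and -0.06, the 4 periportal genes -0.40 and -0.34, and the insulin and feeding genes -0.74 and -0.31.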

How the data were processed

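For 8 livers, the authors deposited counts of reads per gene without normalization. Per the labels, the submitters' processing notes name HISAT2 2.0.5 and Trim Galore. The counting tool is not given in the sources used here. The coordinates were checked against GENCODE M21 (GRCm38) and were the same for 98.3% of 54409 shared genes. The table holds 7 more count columns, which fit no sample described here and were left out. The deposited stellate cell table was not used here.
The test was edgeR 4.0.16 in R 4.3.3 (TMM, minimum count 10, robust quasi-likelihood fit of all 8 livers, Benjamini-Hochberg over 15118 genes). The biological coefficient of variation was 28.3%. Log2 fold changes are the first group over the second, and TPM were computed from the counts and the deposited gene lengths. Replicates are biological according to the labels. The fit was tested on simulated data (15074 genes).
The members and lists were chosen with earlier results of these data known. A further member and some list genes are not reported here. Named genes are the 9 members and, of each list, the 2 genes with the smallest p against TRPV4-KO and against GSK219. Exceptions, chosen after their values were seen, are 4 other pericentral genes, 3 gluconeogenesis and fasting genes and 6 glutamine genes. Genes shared between lists, and those most like Glul and Pck1, are named without a choice by p. Alternatives were DESeq2 1.42.0, RLE factors, no filter, only the groups compared, the replicate number as a block, a sex term, no fold-change threshold and each liver left out. For Hsd17b13 they were added after its values were seen.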

Additional observations from a re-analysis of the deposited data

How the results depend on the processing

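With 2 WT livers, counts over all genes moved strongly with the settings, and the cause was not tested. For WT against TRPV4-KO, 40 genes were called, 495 with DESeq2, 140 without the filter, 20 with only the groups compared, 325 with the sex term, and 3 to 722 with each liver left out (3 without WT replicate 2, 722 without TRPV4-KO replicate 3). For WT against GSK219, 0 were called, 74 with DESeq2, 8 without the filter, 2 with only the groups compared, 4 with the sex term, and 0 to 2 with each liver left out. For TRPV4-KO against GSK219, 15 were called, 93 with DESeq2, 38 without the filter, 34 with the sex term, and 8 to 79 with each liver left out. Of the 9 members, 0 were called in any setting, except 0 to 1 between TRPV4-KO and GSK219 with each liver left out (Hal without TRPV4-KO replicate 3).

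Deviations from the group mean correlated between -0.47 and 0.58 for livers with the same replicate number (7 pairs, mean 0.14). For livers with the same sex reads they correlated between 0.16 and 0.62 (11 pairs). The 2 WT livers deviate from their mean by opposite amounts, so these values are not separate. Some pairs share both the number and the sex reads, so the values cannot decide whether the numbers pair the livers. With the replicate block, 429, 9 and 19 genes were called in the 3 comparisons. Under the block Hal turned to 0.20 on the log2 scale for WT over TRPV4-KO, and for WT over GSK219 Glul turned to 0.064, Oat to 0.11, Pck1 to 0.022 and the pericentral median to 0.064.

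With each liver left out, all 5 pericentral genes and Gls2 and Pck1 kept their direction for WT over TRPV4-KO, though Glul was at 0.37, Slc1a2 at 0.12, Gls2 at -0.43 and Pck1 at -0.09 without WT replicate 1, Slc1a2 at 0.41 and Pck1 at -0.47 without WT replicate 2, Slc1a2 at 0.40 without TRPV4-KO replicate 1, Gls2 at -0.41 without TRPV4-KO replicate 3, and Oat at 0.18 without TRPV4-KO replicate 2 and 0.55 without TRPV4-KO replicate 3, while Hal ranged from -0.58 to 0.53 and Sds from -1.34 to 0.042, and the periportal median from -0.77 to -0.06. For WT over GSK219, Glul ranged from -0.25 to 0.22, Oat from -0.17 to 0.092, Slc1a2 from -0.27 to 0.049, Sds from -0.76 to 0.61, Pck1 from -0.38 to 0.14, Gls2 from -0.86 (without WT replicate 2) to -0.25 (without WT replicate 1), Lgr5 from -0.38 (without GSK219 replicate 2) to -0.14 (without GSK219 replicate 3), Hal was at -0.34 without WT replicate 1, and the medians ranged from -0.17 to 0.092 (pericentral) and -0.79 to -0.12 (periportal). For TRPV4-KO over GSK219, Hal ranged from -1.07 to 0.030, Gls2 from -0.10 to 0.35, Pck1 from -0.038 to 0.42 and the periportal median from -0.028 to 0.35. There all 5 pericentral genes kept their direction, but without GSK219 replicate 3 Glul was at -0.37, Slc1a2 at -0.22 and Oat at -0.24, without TRPV4-KO replicate 3 Axin2 was at -0.28 and Oat at -0.61, and without TRPV4-KO replicate 2 Oat was at -0.24 and Sds at 0.96.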
